A study of Homo sapiens with 12 samples.

Results

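ERBB3, ERBB4, FGFR1, INSR, MERTK, AXL, DDR2 and EPHA2 are receptor tyrosine kinases, and their transcripts were followed here through 4 drug treatments of a melanoma line. They were chosen by name as 8 of the 58 human receptor tyrosine kinases on the list used here, 47 of which were measured, and as 8 of 14582 genes measured in all. Each gene was read by 1 probe set, a group of array probes for one transcript, so the rule of taking the probe set with the highest mean was not needed.

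RNA came from SKMEL2, an established human melanoma cell line that carries mutant NRAS, taken 24 hours after treatment and hybridised to Affymetrix arrays. The DT arm received 100 nM dabrafenib, a BRAF inhibitor, with 10 nM trametinib, a MEK inhibitor. The E arm received 1 µM entinostat, an inhibitor of class I histone deacetylases. The DTE arm received all 3 agents at those doses, and the DMSO arm received the solvent. Each arm has 3 arrays, and every arm is the same cell line in the same medium with serum, so the comparisons describe 1 line. Titles describe the replicates of an arm as biological, whereas the series text describes them as technical. The p-values therefore measure no more than the spread among these arrays, and 3 per arm limit the precision.

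Receptor tyrosine kinases span the plasma membrane. A ligand outside the cell brings receptors together, the kinase domains inside phosphorylate each other, and adaptor proteins that dock on the phosphorylated tails start the RAS-RAF-MEK-ERK and PI3K-AKT cascades. ERK signalling feeds back on the receptors through inhibitors such as the Sprouty proteins. In melanoma, changed levels of ERBB3, AXL, EPHA2 and other receptors are known as one way in which cells respond to RAF or MEK inhibition.

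The deposited values are intensities on a linear scale, and a difference below is a difference of log2 intensities, so that 1 is a doubling. The overall level of the arrays was lowest in DTE. The median intensity of all genes averaged 32.8 ± 1.52 in DT, 46.2 ± 6.21 in E and 24.1 ± 1.14 in DTE, against 37.8 ± 4.03 in DMSO (SD, n = 3 arrays each). For the median log2 intensity, DTE lay below DMSO by a difference of -0.64, with an exact two-sided permutation p of 0.1, the smallest that 3 arrays against 3 allow. The difference from DMSO was -0.20 in DT and 0.29 in E, each with p = 0.2 by the same exact permutation test, and the arrays of both arms overlapped those of DMSO. How the values were rescaled is not known. Fewer cells, less RNA per cell and a technical difference between arrays cannot be told apart here. The part of array level in the receptor results was not tested. Each difference is therefore given in deposited values and after quantile normalization, which gives all arrays 1 distribution. A gene was called where limma's adjusted p over all genes was under 0.05, and "rose" and "fell" mean called in deposited values unless quantile values are named. The dim level, an estimate of background from the dimmest 25% of genes, lay between 11.1 and 16.2 on single arrays. Of the melanocyte markers, 6 of 7 were measured and all had DMSO means above it, between 20.1 for TYRP1 and 870 for TYR. The fibroblast markers LUM and DCN, 2 of 5 measured, averaged 6.41 and 4.40 in DMSO, below the dim level. LUM averaged 13.8 in E and 11.8 in DTE. The immune marker CD68, 1 of 3 measured, averaged 201 in DMSO, above the dim level. The keratinocyte markers EPCAM and KRT14 averaged 29.5 and 25.6, also above it, and KRT5 averaged 5.63, below it.

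The neuregulin receptors ERBB3 and ERBB4 moved in opposite directions under entinostat. ERBB3, which has little kinase activity of its own and signals through PI3K when paired with another ERBB receptor, had intensities of 1136, 994 and 1195 in DT, 371, 423 and 474 in E, and 247, 273 and 298 in DTE, against 1011, 1056 and 823 in DMSO. All 6 arrays with entinostat lay below all 6 without it, and DT overlapped DMSO. ERBB3 fell 2.28-fold in E against DMSO, with a difference of -1.19 ± 0.14 (SE, adjusted p = 9.8e-07) and of -1.29 in quantile values. In DTE the difference from DMSO was -1.82 ± 0.14 (adjusted p = 2.78e-10), and -0.78 in quantile values. Adding entinostat to DT gave -2.02 (adjusted p = 3.61e-10) and -1.28 in quantile values. The order of its levels was DT, DMSO, E and DTE, with DT and DMSO not apart in deposited values (difference 0.21 ± 0.14, adjusted p = 0.337). In quantile values DT was higher than DMSO by 0.50 (adjusted p = 0.00014). DTE against E turned direction with the scaling, at -0.63 in deposited values (adjusted p = 0.000381) and 0.50 in quantile values (adjusted p = 0.00028).

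ERBB4, a neuregulin receptor with an active kinase, had intensities of 12.1, 11.1 and 10.6 in DT, 24.0, 22.8 and 26.7 in E, and 24.4, 31.3 and 36.2 in DTE, against 12.4, 9.80 and 11 in DMSO. The 6 arrays with entinostat lay above the 6 without it, all of which were below the dim level of their array. Folds against those arrays are therefore lower bounds, taken against the higher of the dim level and the probe set's own value. ERBB4 averaged 24.5 ± 2.02 in E against 11.1 ± 1.29 in DMSO (SD, n = 3 each), at least 1.89-fold higher (adjusted p = 2.79e-06), and at least 1.49-fold in quantile values. In DTE it averaged 30.7 ± 5.92, at least 2.34-fold above DMSO (adjusted p = 1.19e-08), and at least 3.50-fold in quantile values. ERBB4 was the one member of the 8 with its highest mean in DTE in deposited values. The DTE and E arrays overlapped in deposited values, where DTE minus E was 0.31 ± 0.15 (adjusted p = 0.0647). That difference passed the test without E replicate 3, at 0.37 (adjusted p = 0.0456), and without DTE replicate 1, at 0.46 (adjusted p = 0.0117), and in quantile values it was 1.23 (adjusted p = 2.24e-05). DT and DMSO were not apart in either scaling.

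FGFR1, INSR and MERTK shared an order of levels in deposited values: E, then DTE, then DMSO and DT, with DMSO and DT not apart. FGFR1, a receptor for fibroblast growth factors, had intensities of 12, 10.3 and 8.50 in DT, 47.4, 43.2 and 37.8 in E, and 23.8, 21.1 and 24.0 in DTE, against 15.2, 11.4 and 11.8 in DMSO. The arms with entinostat overlapped neither each other nor the arms without it. All 3 DT arrays and 2 of 3 DMSO arrays were below the dim level. FGFR1 averaged 42.8 ± 4.84 in E and 12.8 ± 2.12 in DMSO (SD, n = 3 each), at least 3.16-fold higher in E (adjusted p = 6.9e-09), and at least 2.37-fold in quantile values. In DTE, with a mean of 23.0 ± 1.61, it was at least 1.70-fold above DMSO (adjusted p = 3.15e-05), and at least 2.36-fold in quantile values. DTE was below E by a difference of -0.89 ± 0.15 (adjusted p = 1.35e-05) in deposited values, and the difference was -0.0045 in quantile values (adjusted p = 0.991).

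INSR, the insulin receptor, had intensities of 16, 15 and 13.1 in DT, 40.9, 60.5 and 57.3 in E, and 25.8, 27.7 and 27.4 in DTE, against 17.4, 18.2 and 12.9 in DMSO. Every array with entinostat was above every array without it, and DT overlapped DMSO. INSR rose 3.26-fold in E against DMSO, a difference of 1.71 ± 0.16 (SE, adjusted p = 1.89e-08), and 1.28 in quantile values. In DTE it rose by 0.75 ± 0.16 against DMSO (adjusted p = 0.000224), and by 1.32 in quantile values. The DT and DMSO arrays lay above the dim level of their array. DTE against E was -0.95 (adjusted p = 1.04e-05) in deposited values and 0.04 in quantile values (adjusted p = 0.855).

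MERTK and AXL are TAM receptors, which bind the bridging ligands GAS6 and, for MERTK, also protein S (PROS1). MERTK had intensities of 23.4, 21.1 and 22.1 in DT, 88.6, 109 and 137 in E, and 38.1, 39.0 and 44.1 in DTE, against 36.6, 29.3 and 24.1 in DMSO. The arms did not overlap in any comparison. MERTK rose 3.71-fold in E against DMSO, a difference of 1.89 ± 0.16 (SE, adjusted p = 5.48e-09), and 1.55 in quantile values. In DTE the difference from DMSO was 0.45 ± 0.16 (adjusted p = 0.0198), and 1.22 in quantile values (adjusted p = 3.91e-07). The deposited call was lost without DMSO replicate 3, at 0.30 (adjusted p = 0.126), without DTE replicate 3, at 0.38 (adjusted p = 0.0769), and with a pseudocount of 16, at 0.30 (adjusted p = 0.0646). In DT the difference was -0.41 ± 0.16 (adjusted p = 0.0632), and -0.28 in quantile values, which passed the test (adjusted p = 0.0405). Without DMSO replicate 3 the DT difference passed in deposited values too, at -0.56 (adjusted p = 0.0134), as it did with dim genes left out (adjusted p = 0.0465) and with only DT and DMSO fitted (adjusted p = 0.0483).

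AXL went the other way from MERTK in entinostat. Its intensities were 387, 368 and 408 in DT, 479, 520 and 485 in E, and 247, 277 and 246 in DTE, against 586, 679 and 626 in DMSO. All treated arrays lay below all DMSO arrays, in the order DMSO, E, DT and DTE, with every neighbouring pair apart. AXL fell by 0.70 ± 0.13 on the log2 scale in DT (adjusted p = 0.000187), and differed by -0.32 in quantile values (adjusted p = 0.0396). In E the difference was -0.35 ± 0.13 (adjusted p = 0.0488), and -0.40 in quantile values (adjusted p = 0.0113). Leaving out any 1 of the 6 arrays of E and DMSO ended the deposited call, with adjusted p between 0.0513 and 0.175, and so did leaving out dim genes (adjusted p = 0.0598) or fitting only E and DMSO (adjusted p = 0.143). In DTE AXL differed from DMSO by -1.29 (adjusted p = 7.2e-09) in deposited values but by -0.22 (adjusted p = 0.115) in quantile values. In quantile values no neighbours in the order of AXL levels were apart.

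The ligands of these receptors were set beside them. GAS6 and PROS1 are named after their values were seen. PROS1 averaged 96.9 ± 11.7 in DT, 155 ± 22.6 in E and 83.4 ± 14.2 in DTE, against 84.6 ± 9.21 in DMSO (SD, n = 3 each), while GAS6 averaged 25.9 ± 2.64 in DT, 36.0 ± 3.51 in E and 17.0 ± 0.85 in DTE, against 27.2 ± 3.76 in DMSO. In E, PROS1 rose by 0.87 ± 0.16 (adjusted p = 0.000164), and by 0.71 in quantile values, while GAS6 rose by 0.41 ± 0.14 (adjusted p = 0.0362) but was at 0.09 in quantile values (adjusted p = 0.538). NRG1, the neuregulin that binds ERBB3 and ERBB4, averaged 16.1 ± 1.10 in DT, 35.3 ± 4.89 in E and 25.5 ± 0.89 in DTE, against 16.4 ± 1.22 in DMSO. NRG1 rose by 1.10 ± 0.14 in E (adjusted p = 1.13e-06), where ERBB3 fell and ERBB4 rose.

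**Figure D1:**
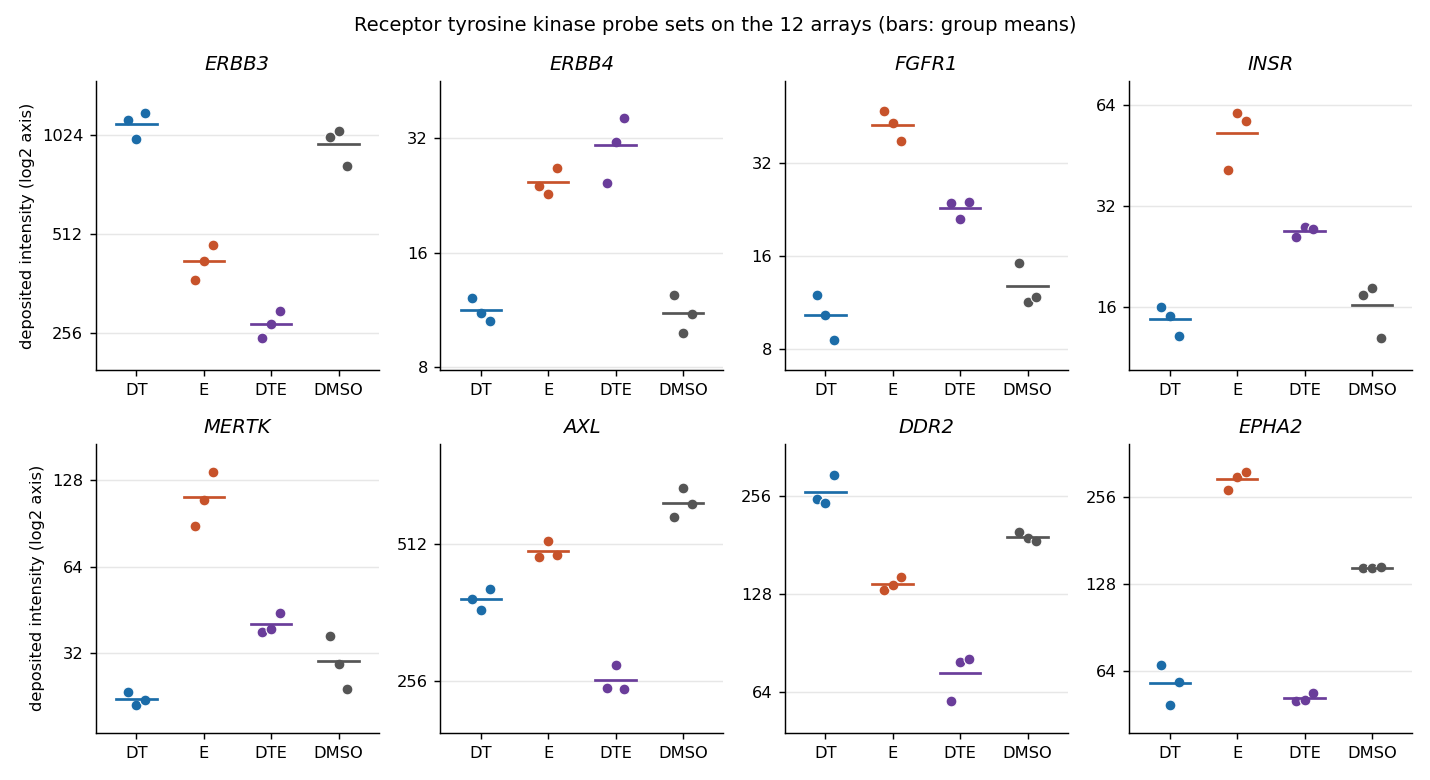
Intensity of each of the 8 receptors on each array, on a log axis, with DT, E, DTE and DMSO in that order 1 point per array and bars at the arm means. ERBB4, FGFR1, INSR and MERTK lie higher in both arms with entinostat, and ERBB3 and DDR2 lie lower in them. EPHA2 is high in E at 270.2 to 313 and low in DTE at 50.4 to 53.8.

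DDR2, a receptor for fibrillar collagens, had intensities of 251, 244 and 297 in DT, 131, 136 and 145 in E, and 59.6, 79.2 and 80.4 in DTE, against 198, 191 and 186 in DMSO. None of the arms overlapped, in the order DT, DMSO, E and DTE. DDR2 was the only member called higher in DT in deposited values, with a difference of 0.46 ± 0.14 (SE, adjusted p = 0.0169), and of 0.79 in quantile values (adjusted p = 9.35e-05). The deposited call was lost without DMSO replicate 2, at an adjusted p of 0.0516, and without DT replicate 3, at 0.0971. In E it fell by 0.48 ± 0.14 (adjusted p = 0.0137), and differed by -0.58 in quantile values. In DTE it differed from DMSO by -1.40 (adjusted p = 8.61e-09), and by -0.31 in quantile values (adjusted p = 0.0342). Adding entinostat to DT gave -1.86 (adjusted p = 8.53e-10), and -1.10 in quantile values.

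EPHA2, an ephrin-A receptor, was the member that the single treatments moved in opposite directions by more than 1 on the log2 scale in deposited values. Its intensities were 67.3, 48.7 and 58.5 in DT, 270.2, 300.5 and 313 in E, and 50.4, 50.9 and 53.8 in DTE, against 145, 145 and 147 in DMSO. The E arrays were all above DMSO, and the DT and DTE arrays, which overlapped each other, were all below it. EPHA2 fell 2.53-fold in DT, a difference of -1.34 ± 0.14 (SE, adjusted p = 7.98e-08), and -0.97 in quantile values. In E it rose 2.02-fold, by 1.01 ± 0.14 (adjusted p = 4.65e-06), and by 0.93 in quantile values. In DTE it differed from DMSO by -1.50 (adjusted p = 2.06e-09), and by -0.45 in quantile values (adjusted p = 0.00334). Against E alone, DTE was 5.69-fold lower, a difference of -2.51 (adjusted p = 4.01e-12), and -1.38 in quantile values. DTE minus DT was -0.16 (adjusted p = 0.336) in deposited values and 0.52 in quantile values (adjusted p = 0.00166).

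The promoters of the 4 members that rose in E and have 1 RefSeq entry each are shown for their base composition and short motifs, as the 250 bases before the gene start in GRCh38.p14, in the direction of transcription. ERBB4 is at chr2:212538803-212539052 (minus strand), INSR at chr19:7294415-7294664 (minus strand), MERTK at chr2:111898357-111898606 (plus strand) and EPHA2 at chr1:16156070-16156319 (minus strand). Capitals mark matches to any of 5 motifs on either strand, of which GGGCGG (the GC box, CCGCCC on the other strand) and TGACGTCA (the cAMP response element) were found.
ERBB4: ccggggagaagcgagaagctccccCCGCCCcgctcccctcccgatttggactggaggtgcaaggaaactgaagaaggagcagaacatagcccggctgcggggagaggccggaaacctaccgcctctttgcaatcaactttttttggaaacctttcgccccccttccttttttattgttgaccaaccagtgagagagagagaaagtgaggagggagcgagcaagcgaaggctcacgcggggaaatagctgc
INSR: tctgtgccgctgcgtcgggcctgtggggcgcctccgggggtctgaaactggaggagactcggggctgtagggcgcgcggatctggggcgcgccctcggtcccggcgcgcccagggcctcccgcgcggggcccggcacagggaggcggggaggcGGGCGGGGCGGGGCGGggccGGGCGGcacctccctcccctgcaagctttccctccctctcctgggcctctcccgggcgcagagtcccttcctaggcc
MERTK: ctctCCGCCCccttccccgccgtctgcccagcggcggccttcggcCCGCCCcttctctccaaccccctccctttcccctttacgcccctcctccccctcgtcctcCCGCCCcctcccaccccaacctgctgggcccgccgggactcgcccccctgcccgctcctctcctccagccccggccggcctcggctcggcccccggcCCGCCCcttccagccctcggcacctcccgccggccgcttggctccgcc
EPHA2: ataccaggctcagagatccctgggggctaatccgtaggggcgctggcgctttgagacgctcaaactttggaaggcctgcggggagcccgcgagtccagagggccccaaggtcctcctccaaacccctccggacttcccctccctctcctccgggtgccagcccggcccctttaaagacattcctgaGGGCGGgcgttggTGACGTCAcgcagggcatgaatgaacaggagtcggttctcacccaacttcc
GC content was 57.2% for ERBB4, 78.4% for INSR, 78.8% for MERTK and 63.2% for EPHA2, against a median of 58% over 35116 promoters of this length. The INSR promoter held 4 GC boxes, 3 of them overlapping, the MERTK promoter also held 4, and the ERBB4 and EPHA2 promoters held 1 each. GC boxes were found in 42.6% of all promoters. TGACGTCA was found in the EPHA2 promoter, starting 51 bases before the gene start, and in 1.65% of all promoters. AP-1 sites (TGANTCA), the E-box CACGTG and CCAAT boxes, present in 6.57%, 6.34% and 32% of promoters, had no match in these 4 windows. No transcription factor binding was measured here.

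The members were chosen with earlier results of these data known, so their counts describe these 8 genes and not the family. In E against DMSO, 5 members rose (ERBB4, FGFR1, INSR, MERTK and EPHA2) where 20.8% of all genes were called higher, and 3 fell (ERBB3, AXL and DDR2) where 4.81% were called lower. In quantile values the same 5 and 3 were called, beside 15.1% higher and 16.3% lower of all genes. Without any 1 array, and with the replicate block, 7 were called in deposited values, as AXL was lost. In DT against DMSO, 1 member rose (DDR2) where 4.72% of all genes did, and 2 fell (AXL and EPHA2) where 23.1% did. After quantile normalization ERBB3 and DDR2 were called higher in DT, beside 15.1% of all genes, and MERTK, AXL and EPHA2 lower, beside 14.6%.

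In DTE against DMSO, 4 members rose (ERBB4, FGFR1, INSR and MERTK) where 4.26% of all genes were called higher, and 4 fell (ERBB3, AXL, DDR2 and EPHA2) where 60.8% were called lower. In quantile values the 4 that rose were called again, beside 20.5% of all genes, and ERBB3, DDR2 and EPHA2 were called lower, beside 22.4%. The median difference of all genes was -0.54 in deposited values and -0.03 in quantile values. The falls of ERBB3, AXL, DDR2 and EPHA2 in DTE are therefore read against that shift. These 3 comparisons share the DMSO arrays.

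**Figure D2:**
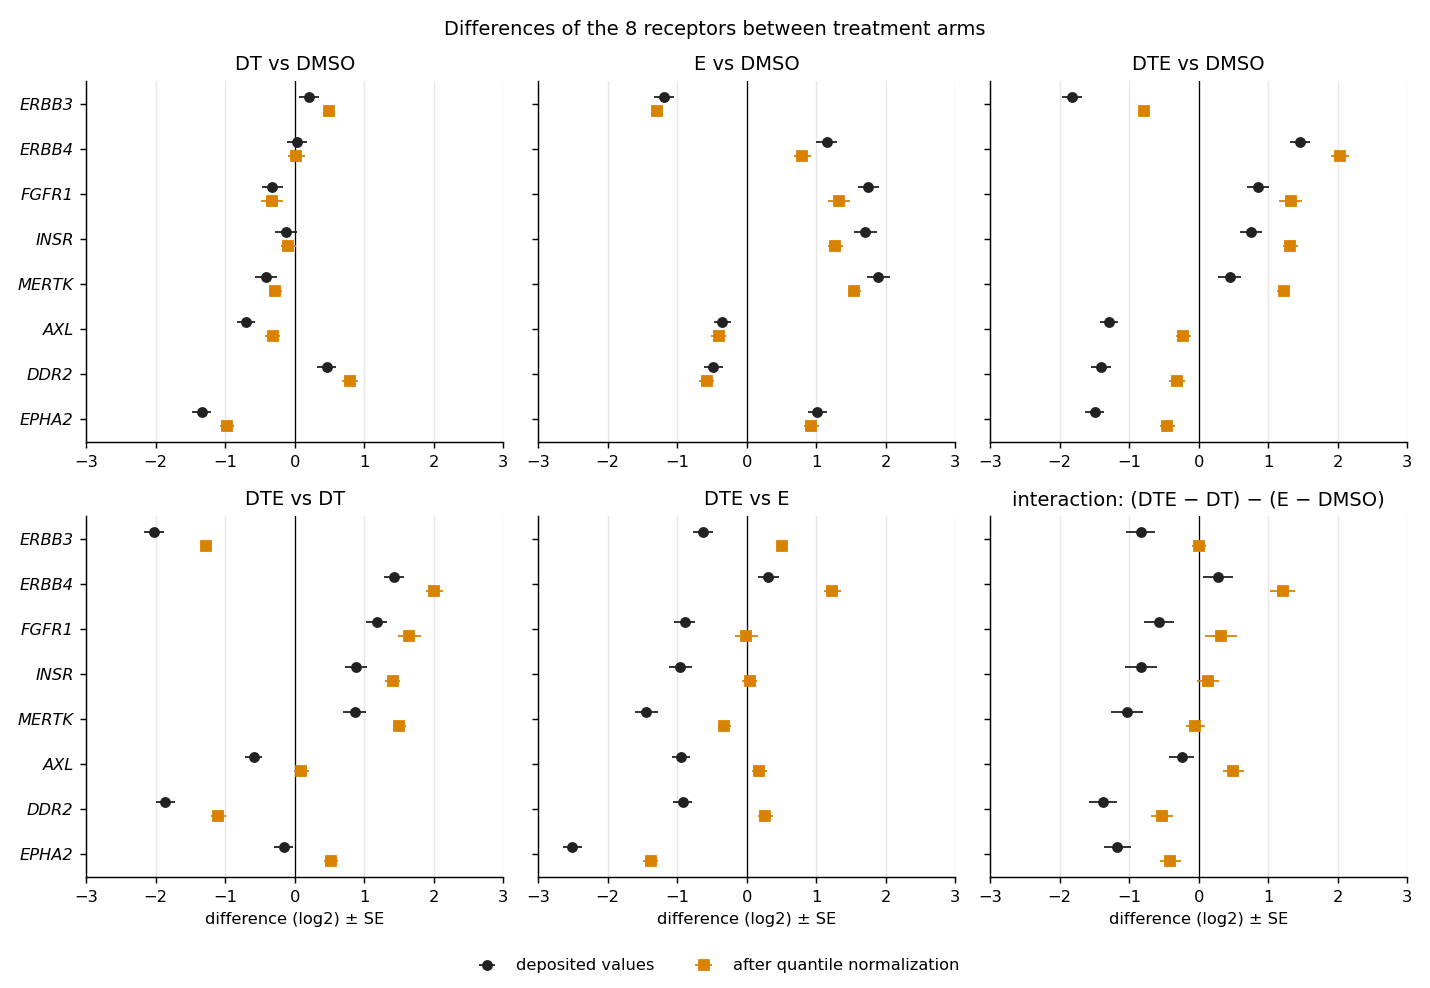
Log2 differences of the 8 receptors in each comparison, with deposited and quantile values drawn separately and standard errors as bars. Fitted values are drawn also where ERBB4 and FGFR1 are dim. In E against DMSO both scalings give 5 receptors above 0 and 3 below it, while in DTE against DMSO AXL stands at -1.29 in deposited values and at -0.22 in quantile values.

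Adding entinostat to dabrafenib and trametinib (DTE against DT) raised ERBB4, FGFR1, INSR and MERTK, where 4.09% of all genes were called higher, and lowered ERBB3, AXL and DDR2, where 54% were called lower. ERBB4 was at least 2.32-fold and FGFR1 at least 1.76-fold higher in DTE, INSR rose by 0.88 ± 0.16 (adjusted p = 6.73e-05) and MERTK by 0.86 ± 0.16 (adjusted p = 0.000109). In quantile values these 4 and EPHA2 were called higher, beside 16.4% of all genes, and ERBB3 and DDR2 lower, beside 17.9%. AXL was then at 0.09 (adjusted p = 0.546).

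Adding dabrafenib and trametinib to entinostat (DTE against E) lowered every member except ERBB4 in deposited values, 7 of 8, where 78.5% of all genes were called lower and 0.247% higher. The median of all genes was -0.82, and ERBB3, AXL, DDR2, FGFR1 and INSR lay within 0.19 of it. In quantile values EPHA2 and MERTK (-0.32, adjusted p = 0.0273) were called lower, beside 9.99% of all genes, and ERBB3 and ERBB4 higher, beside 10.1%.

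The interaction, (DTE - DT) - (E - DMSO) in log2 values, asks whether the effects of entinostat and of the inhibitor pair add on the log2 scale. In deposited values it was called lower for 6 of 8 members, where 62.5% of all genes were called lower and 0.206% higher, with a median of -0.63 over all genes. DDR2 had -1.38 ± 0.20 (SE, adjusted p = 3.25e-05) and EPHA2 -1.17 ± 0.19 (adjusted p = 0.000113). In quantile values neither passed, at -0.52 (adjusted p = 0.0783) for DDR2 and -0.41 (adjusted p = 0.155) for EPHA2. ERBB4 alone of the members was called then, higher at 1.21 ± 0.18 (adjusted p = 0.0022), beside 2.08% of all genes called higher and 2.12% lower. In deposited values the ERBB4 interaction was 0.28 ± 0.21 and was not called (adjusted p = 0.254). ERBB4 is dim in DT and DMSO, so whether the effects add cannot be judged for it.

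Among the other 39 measured receptor tyrosine kinases, 19 rose and 0 fell in E by limma (25 and 0 at an unadjusted p under 0.05), with 11 called higher and 1 lower in quantile values. The 48.7% that rose stand beside 20.8% of all genes, and the 28.2% called higher in quantile values beside 15.1%. Over all 47 the median difference in E was 0.43, against 0.14 over all genes. CSF1R, the receptor for colony stimulating factor 1 and for IL34, averaged 30.3 ± 5.73 in DT, 223 ± 35.4 in E and 85.7 ± 7.49 in DTE, against 27.2 ± 2.69 in DMSO (SD, n = 3 each). It rose by 3.03 ± 0.16 in E (adjusted p = 1.35e-12) and by 1.66 in DTE (adjusted p = 3.38e-09). In quantile values these differences were 2.68 and 2.50. KDR, a receptor for vascular endothelial growth factors, averaged 20.0 ± 2.35 in DT, 262 ± 55.8 in E and 58.4 ± 6.49 in DTE, against 39.3 ± 9.34 in DMSO. It fell by 0.95 in DT (adjusted p = 0.000251) and rose by 2.74 in E (adjusted p = 6.65e-11), the same directions as EPHA2 in these arms. The endothelial markers PECAM1 and CDH5 were not analysed here.

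In DT, 1 of the other 39 receptors rose and 8 fell, and in quantile values 1 was called higher and 4 lower. The share that rose was 2.56%, beside 4.72% of all genes, and the share that fell was 20.5%, beside 23.1%. In quantile values 2.56% were called higher and 10.3% lower, beside 15.1% and 14.6%. FLT1, another receptor for vascular endothelial growth factors, rose by 0.64 ± 0.15 (adjusted p = 0.00205), and EPHB4, a receptor for ephrin-B2, fell by 0.93 ± 0.15 (adjusted p = 3.82e-05). In DTE, 4 rose and 13 fell in deposited values, while 18 were called higher and 2 lower in quantile values. The 10.3% that rose and the 33.3% that fell stand beside 4.26% and 60.8% of all genes. In quantile values 46.2% were called higher and 5.13% lower, beside 20.5% and 22.4%. RYK, a Wnt receptor, was at -0.97 in deposited values (adjusted p = 3.86e-06) and at 0.14 in quantile values (adjusted p = 0.141) in DTE.

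**Figure D3:**
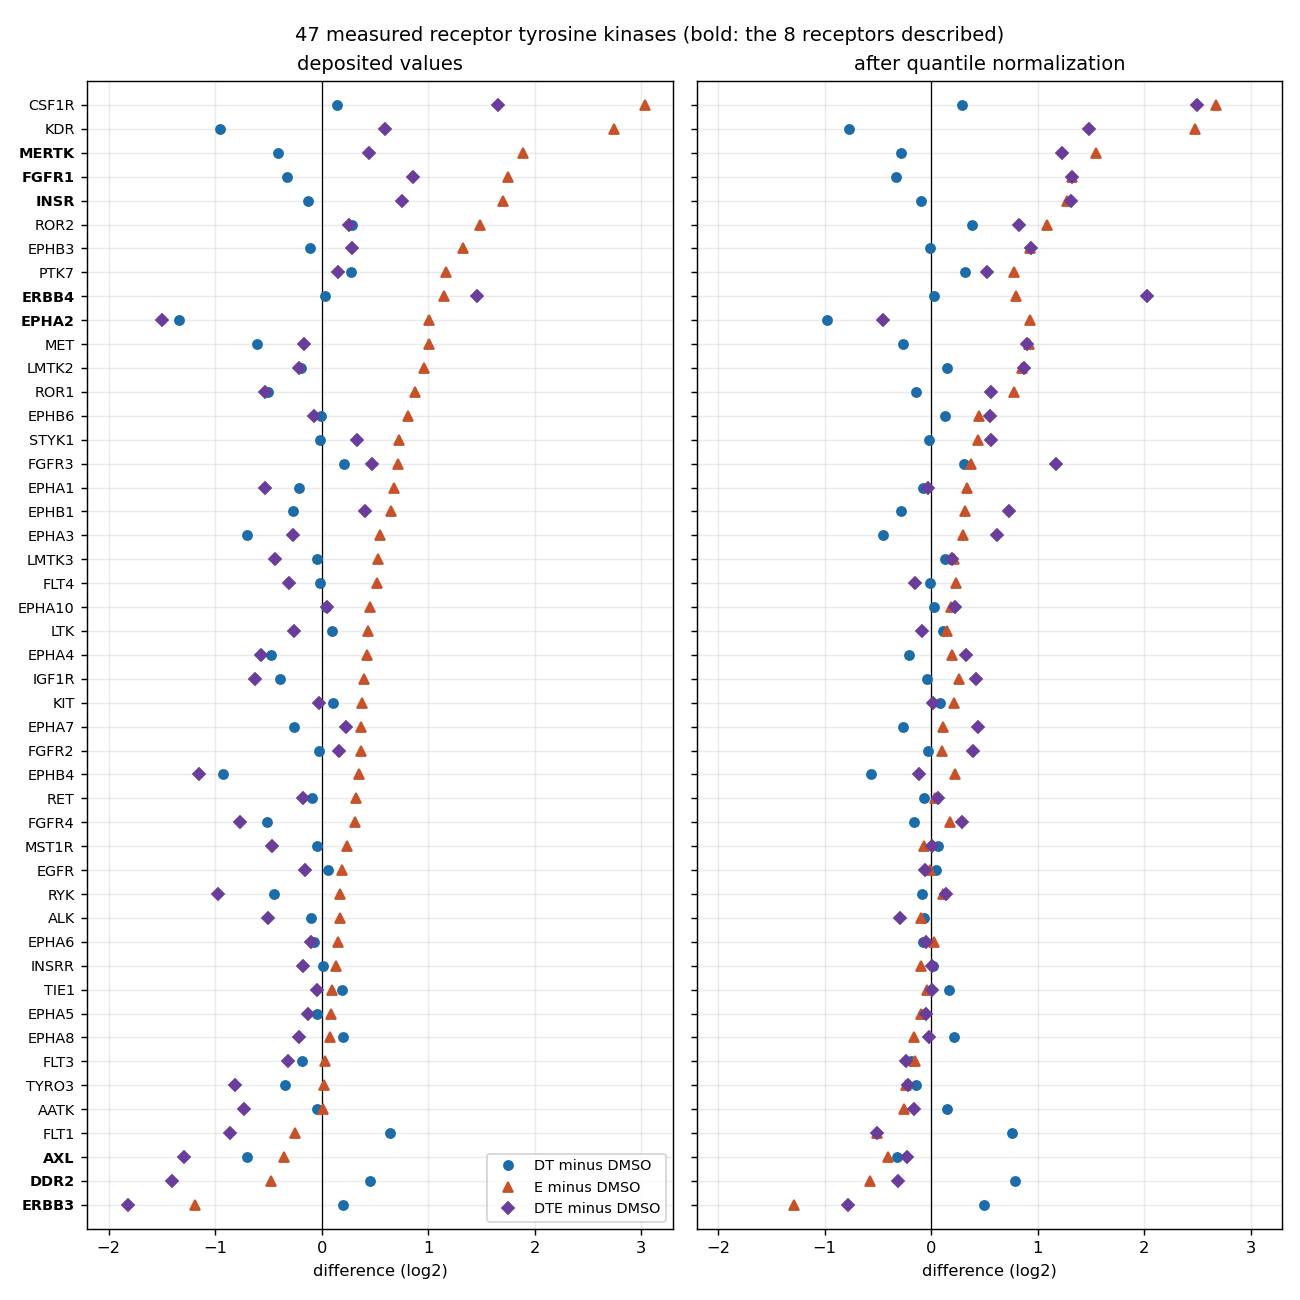
Log2 differences from DMSO of the 47 measured receptor tyrosine kinases in DT, E and DTE, in deposited values (left) and after quantile normalization (right), 1 row per gene in the order of the E difference, with the 8 members in bold. CSF1R is highest in E at 3.03 and ERBB3 lowest at -1.19, and most DTE points lie further right in the quantile panel. All points are fitted differences, and 15 of the 47 receptors, ERBB4 and FGFR1 among them, have a DMSO mean below the dim level.

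Of 61 receptor ligands, 50 were measured. In E, 25 rose and 0 fell by limma (28 and 0 at an unadjusted p under 0.05), with 20 called higher and 2 lower in quantile values, and the list's median was 0.37 against 0.14 over all genes. The 50% that rose stand beside 20.8% of all genes, and the 40% called higher in quantile values beside 15.1%. KITLG, the ligand of KIT, rose by 1.43 ± 0.16 in E (adjusted p = 2.16e-07). In DT, 2 rose (4%, beside 4.72% of all genes) and 9 fell (18%, beside 23.1%). PDGFD, a platelet-derived growth factor, was at least 3.33-fold lower in DT (adjusted p = 3.92e-09), and EFNA5, an ephrin-A that binds EPHA receptors, fell by 1.32 ± 0.15 (adjusted p = 3.91e-07). In DTE, 5 rose (10%, beside 4.26% of all genes) and 16 fell (32%, beside 60.8%). In quantile values 17 were called higher there (34%, beside 20.5%) and 2 lower (4%, beside 22.4%). EFNA1, a ligand of EPHA2, rose by 0.42 ± 0.18 in DTE (adjusted p = 0.0451), where EPHA2 fell, and EFNA5 fell there by 2.12 ± 0.15 (adjusted p = 5.91e-11). In quantile values EFNA1 was at 1.22 and EFNA5 at -1.05 in DTE. EFNA1 also rose in E, by 0.51 ± 0.18 (adjusted p = 0.0377), where EPHA2 rose too. Its quantile difference in E was 0.19 (adjusted p = 0.306).

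Among the adaptors and docking proteins that carry the signal inward, 23 of 39 were measured, and 4 rose and 4 fell in DT, 6 rose and 1 fell in E, and 2 rose and 14 fell in DTE. In DT 17.4% rose and 17.4% fell, beside 4.72% and 23.1% of all genes. The 26.1% that rose and the 4.35% that fell in E stand beside 20.8% and 4.81%. In DTE the 8.7% that rose and the 60.9% that fell stand beside 4.26% and 60.8%. In quantile values 7 were called higher and 4 lower in DT, 6 and 4 in E, and 5 and 4 in DTE. The 30.4% called higher in DT then stand beside 15.1% of all genes. In E 26.1% were called higher and 17.4% lower, beside 15.1% and 16.3%. DOK4, a docking protein that binds active receptors, rose by 2.05 ± 0.14 in E (adjusted p = 1e-10) and by 1.10 in DTE. GRB14, which binds and inhibits the insulin receptor, rose by 0.73 ± 0.16 in DT (adjusted p = 0.00112), by 1.12 in E (adjusted p = 1.01e-05) and by 0.62 in DTE (adjusted p = 0.00164). In quantile values DOK4 was at 1.81 and GRB14 at 1.68 in DTE. GAB1 rose by 0.82 ± 0.16 in DT (adjusted p = 0.000256), and its relative GAB2 fell there by 1.12 ± 0.19 (adjusted p = 7.57e-05) and differed by -1.97 in DTE.

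Negative regulators of receptor signalling, 16 of 29 measured, had the lowest median of the lists in DT, at -0.79 against -0.12 over all genes, with 0 called higher and 9 lower by limma (also 0 and 9 at an unadjusted p under 0.05). In quantile values 3 were called higher and 9 lower. The 56.2% called lower in both scalings stand beside 23.1% of all genes in deposited and 14.6% in quantile values. SPRY4, a Sprouty inhibitor of receptor signalling, averaged 54.9 ± 8.23 in DT, 617 ± 142 in E and 33.8 ± 2.74 in DTE, against 904 ± 130 in DMSO (SD, n = 3 each). It fell by 4.04 ± 0.17 in DT (adjusted p = 3.74e-14) and differed by -4.73 in DTE (adjusted p = 1.62e-15). DUSP4, a phosphatase of ERK and related kinases, fell by 2.71 ± 0.16 in DT (adjusted p = 1.87e-11) and differed by -2.96 in DTE. In E, 6 rose and 1 fell (37.5% and 6.25%, beside 20.8% and 4.81% of all genes). Among those that rose were SPRY3 with 1.60 ± 0.16 (adjusted p = 5.15e-08) and DUSP5 with 1.51 ± 0.15 (adjusted p = 3.45e-08). In DTE, 2 rose (12.5%, beside 4.26% of all genes) and 11 fell (68.8%, beside 60.8%). In quantile values 6 were called higher there (37.5%, beside 20.5%) and 7 lower (43.8%, beside 22.4%).

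Of 16 transcription factors linked to receptor genes, 15 were measured, and 3 rose and 3 fell in DT, 2 rose and 2 fell in E, and 1 rose and 12 fell in DTE. In DT 20% rose and 20% fell, beside 4.72% and 23.1% of all genes. In E 13.3% rose and 13.3% fell, beside 20.8% and 4.81%. In DTE 6.67% rose and 80% fell, beside 4.26% and 60.8%. In quantile values 7 were called higher and 2 lower in DT, 2 and 7 in E, and 5 and 6 in DTE, so the balance of the counts differed between scalings in all 3 arms. The 46.7% called higher in DT and the 46.7% called lower in E then stand beside 15.1% and 16.3% of all genes. In DTE 33.3% were called higher and 40% lower, beside 20.5% and 22.4%. FOXD3, a factor known to bind the ERBB3 gene in melanoma cells, rose by 1.81 ± 0.15 in DT (adjusted p = 4.18e-09) and fell by 0.59 in E (adjusted p = 0.00519). JUN rose by 2.19 ± 0.14 in DT (adjusted p = 5.37e-11) and by 0.96 in E. MITF, the master regulator of the melanocyte lineage, fell by 2.09 ± 0.15 in DT (adjusted p = 5.54e-10) and differed by -2.19 in DTE. Its quantile differences in these arms were -1.73 and -1.10. In E MITF was at -0.39 (adjusted p = 0.0657), and at -0.46 in quantile values (adjusted p = 0.000757). FOXO1 rose by 0.96 ± 0.16 in E (adjusted p = 5.36e-05).

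Melanocyte identity genes, 11 of 15 measured, had 1 called higher and 5 lower in DT, 1 and 2 in E, and 0 and 10 in DTE by limma (also 0 and 10 at an unadjusted p under 0.05 in DTE), and in quantile values 5 and 3, 1 and 7, and 1 and 7. The share that fell was 45.5% in DT, beside 23.1% of all genes, and 90.9% in DTE, beside 60.8%. In E 9.09% rose and 18.2% fell, beside 20.8% and 4.81%. In quantile values 45.5% were called higher in DT, beside 15.1% of all genes. The share called lower was then 63.6% in E and also in DTE, beside 16.3% and 22.4%. PMEL rose by 0.67 ± 0.15 in E (adjusted p = 0.00145) and MLANA fell there by 0.54 ± 0.15 (adjusted p = 0.0113). Mesenchymal genes, 11 of 16 measured, had 2 called higher and 4 lower in DT, 5 and 1 in E, and 1 and 8 in DTE, and in quantile values 4 and 3, 5 and 3, and 5 and 1. The share that fell was 36.4% in DT, beside 23.1% of all genes, and 72.7% in DTE, beside 60.8%. The share that rose was 18.2% in DT, beside 4.72%, and 45.5% in E, beside 20.8%. In quantile values 36.4% were called higher in DT, 45.5% in E and 45.5% in DTE, beside 15.1%, 15.1% and 20.5%. In DT, ZEB2 rose by 1.26 ± 0.15 (adjusted p = 4.79e-07) and THBS1 by 0.92 ± 0.14 (adjusted p = 2.54e-05). FOSL1 fell there by 1.17 ± 0.14 (adjusted p = 4.5e-07) and TWIST1 by 0.75 ± 0.16 (adjusted p = 0.00115). In E, THBS1 rose by 1.29 ± 0.14 (adjusted p = 2.3e-07) and SNAI2 fell by 0.75 ± 0.14 (adjusted p = 0.000252).

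The genes whose log2 values ran most like a member's were ranked by Pearson's r over the 12 arrays, among the genes above the median level. The arrays share the 4 treatments and their level, so r is a description. ZNF827 was nearest to ERBB3 (r = 0.995, and 0.991 in quantile values), HPSE to FGFR1 (0.987 and 0.985) and ELOVL7 to INSR (0.992 and 0.990). CDON was nearest to MERTK (0.992 and 0.968), with KDR among its nearest 3 (0.990 and 0.981), and TMEM140 was nearest to DDR2 (0.982 and 0.978). FLG was nearest to ERBB4, at a lower r of 0.958 in both scalings. For EPHA2 the nearest was CNEP1R1 (0.990 and 0.880), and EZH2 was among the nearest 3 (0.989 and 0.957). For AXL the nearest gene, DRD4, had r = 0.993 in deposited values and 0.545 in quantile values. By r in quantile values HPSE and ELOVL7 stayed nearest, and ZNF827 and TMEM140 ranked 2. FLG ranked 14, KDR and EZH2 19, CDON 68, CNEP1R1 241 and DRD4 460, among 7029 or 7030 genes.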

How the data were processed

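RNA of SKMEL2 cells was measured on 12 arrays, and per the labels ERCC spike-in RNA was added before extraction. The deposited values are linear intensities that span 2.35 to 8596. RMA and the software Transcriptome Analysis Console are the tools named, per the submitters' processing notes, with no version. How they were rescaled, whether the spike-ins were used, and the genome build are not given in the sources used here. The design assumed log2 values, but the authors deposited linear ones, so log2 was computed, without pseudocount or filter.

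Of 29398 probe sets, the 14750 with 1 gene symbol in GEO's platform annotation gave 14582 genes, and 14648 were not named here. One model of the 12 arrays with a mean for each arm was fitted by lmFit and eBayes (limma 3.58.1 under R 4.3.3), with Benjamini-Hochberg adjustment over all genes within each of 6 comparisons. The fit was tested on simulated data. The dim level is the 95th percentile, on each array, of the dimmest 25% of genes. An arm was treated as dim where its mean was not above it. Promoters are from RefSeq (GRCh38.p14), where 6 members matched. AXL and DDR2 have several entries, and ERBB3 and FGFR1 are named only.

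The members and gene lists were chosen with earlier results of these data known. From each list, in each arm against DMSO, at most the 2 largest called rises and falls above the dim level could be named. Alternatives were other scalings, a pseudocount of 16, a filter on dim genes, the mean of a gene's probe sets, eBayes with trend and robust, only the groups compared, a replicate block and leaving out each array. List counts, orders of levels and r in quantile values were added after the data were seen.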

Additional observations from a re-analysis of the deposited data

Results flagged for a closer look

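The interaction of entinostat with dabrafenib and trametinib was called lower by limma in deposited values for 6 of 8 receptors, beside 62.5% of all genes. It was -0.84 for ERBB3 (adjusted p = 0.00192), -0.57 for FGFR1 (adjusted p = 0.0262), -0.83 for INSR (adjusted p = 0.00403), -1.03 for MERTK (adjusted p = 0.00106), -1.38 for DDR2 (adjusted p = 3.25e-05) and -1.17 for EPHA2 (adjusted p = 0.000113). The median over all genes was -0.63, from which ERBB3 differed by -0.21, INSR by -0.20 and FGFR1 by 0.056, each about 1 standard error or less. None of the 6 was called in quantile values. DDR2 kept its call with arrays centred on their median, at -0.65 (adjusted p = 0.0204), and on the genes above the median level, at -0.56 (adjusted p = 0.0295), and the other 5 did not. FGFR1 is dim in DT and DMSO. The FGFR1 interaction also missed the threshold with any of 5 single arrays left out: DMSO replicate 2 (-0.49, adjusted p = 0.0701), DMSO replicate 3 (-0.52, adjusted p = 0.0568), DT replicate 1 (-0.45, adjusted p = 0.091), E replicate 1 (-0.50, adjusted p = 0.0505) and DTE replicate 2 (-0.51, adjusted p = 0.0671).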

How the results depend on the processing

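The receptor values depended most on scaling. Over 48 values (8 receptors in 6 comparisons), 29 kept direction and call after quantile normalization, 31 with arrays centred on their median and 28 centred on the genes above the median level. They kept both in all 48 with eBayes trend and robust and with the mean of a gene's probe sets, in 47 with a pseudocount of 16 and 46 each without dim genes and with only the groups compared. Without 1 array, 316 of 336 did. The cause of the differences between scalings was not tested.

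Counts of genes called moved to 6658 in DT against DMSO with bright-gene centring (4056 in deposited values), and after quantile normalization to 6261 in DTE against DMSO (9490), 4993 in DTE against DT (8466) and 2923 in DTE against E (11489). The interaction called 612 after quantile normalization, 2540 with median and 3125 with bright-gene centring (9147). Receptors called in DT against DMSO were 5 after quantile normalization, beside 4329 of 14582 genes, and 5 with bright-gene centring, beside 6658 (3 in deposited values, beside 4056). In DTE against E they were 4 in each of the 3 scalings (7), beside 2923 genes with quantile, 8086 with median and 9232 with bright-gene scaling (11489). In the interaction they were 1, 2 and 3 (6), beside 612, 2540 and 3125 genes (9147). Without 1 array, genes called ranged from 3002 to 4688 in DT, 2927 to 4296 in E and 8647 to 9609 in DTE against DMSO, with 2 to 4, 7 and 7 to 8 receptors.

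Some directions turned. In DT against DMSO, ERBB4 ranged from -0.054 to 0.11 with 1 array left out (-0.024 without DT replicate 1), FGFR1 was 0.027 with bright-gene centring, and INSR was 0.072 with median and 0.22 with bright-gene centring. In DTE against DT, AXL was 0.095 after quantile normalization and 0.10 with bright-gene centring, and EPHA2 was 0.52, 0.29 and 0.54 in the quantile, median and bright-gene settings. In DTE against E and those 3 settings, ERBB3 was 0.50, 0.30 and 0.54 and DDR2 0.27, 0.0050 and 0.25. FGFR1 was 0.034 and 0.28 with median and bright-gene centring, INSR 0.040 and 0.22 and AXL 0.18 and 0.23 with quantile and bright-gene settings. In the interaction, ERBB3 was 0.0062 and INSR 0.13 after quantile normalization, FGFR1 was 0.32, 0.16 and 0.25 and AXL 0.50, 0.49 and 0.58 in the 3 settings.

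Same-numbered arrays deviated little together (correlations from -0.22 to 0.13 in deposited values, with 2 of 18 pairs over 0.1). Those 2 pairs were of E and DTE, at 0.13 and 0.11. Whether same-numbered arrays share a batch or culture was not tested. With the replicate block, 3749 genes were called in DT, 3387 in E and 9283 in DTE against DMSO, 8197 in DTE against DT, 11393 in DTE against E and 8738 in the interaction. The block ended 1 receptor call, AXL in E against DMSO, at an adjusted p of 0.0798, and left 7 receptors called there.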
